A study of Arabidopsis thaliana with 34 samples.

Results

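The data are ChIP-seq peak lists of the linker histone H1 in *Arabidopsis thaliana*, from WT plants and from *nrpe1* plants. The lists compared are the 4 that were made with the H1 antibody in these genotypes, 2 libraries each, of 34 samples in the series. WT was non-transgenic Col-0, and *nrpe1* was the *nrpe1-11* allele in Col-0, a T-DNA insertion in the gene of the largest subunit of Pol V. The methods give seedlings of 10 to 12 days, pooled for each sample and grown on agar plates, while the tissue label of every sample reads floral tissue. The study describes replicates 1 and 2 as biological, the labels name no separate plants or pools behind them, and the genotype of the *nrpe1* libraries was taken from the labels. Both *nrpe1* lists carry the same internal sample tag in their names, and whether they are separate libraries could not be settled from the labels. They had 0 peaks with the same coordinates, as did the WT lists. Peaks on the 5 nuclear chromosomes were used. Neither the H1 lists nor the H1 lists of ZF108-DMS3 held any other peak.

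H1 binds DNA at the entry and exit of the nucleosome, and it compacts chromatin. In Arabidopsis it is densest in the pericentromeric heterochromatin, where transposon-derived sequence is packed and carries H3K9me2. Pol V belongs to RNA-directed DNA methylation (RdDM), in which it makes the scaffold transcripts that guide the DNA methyltransferase DRM2. The comparison asks whether H1 moves when Pol V is missing.

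Peaks of the 4 lists that overlapped or touched were merged into 23761 regions. A region was gained when both *nrpe1* libraries and neither WT library had a peak in it, lost in the opposite case, and shared when all 4 libraries had one. By this rule 636 regions (2.68% of all merged regions) were gained, 797 (3.35%) were lost and 5539 (23.3%) were shared. With an equal number of peaks taken from each list the balance turned, to 802 gained and 566 lost regions. A further 2707 regions held a peak of 1 library of each genotype. These are summed over the 4 possible pairs of a WT and an *nrpe1* library, while the gained and the lost regions rest on 1 pair each. Another 11423 regions, 48.1% of the total, held peaks of a single library. The regions seen once were 2578 and 3930 for WT replicates 1 and 2, and 2694 and 2221 for the *nrpe1* replicates. The gained and lost regions were therefore fewer than the regions private to any single library, and a list of this kind cannot be tested region by region with 2 libraries a group.

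Sequences at the summits show what kind of place each class led with. The strongest gained and lost regions, the strongest of each that lay in a protein-coding gene, and the strongest shared region are given as 200 bases around the summit, + strand, TAIR10.1, with every CG site, the context that MET1 maintains, in capitals.
gained, intergenic, chr3:13752567-13752766: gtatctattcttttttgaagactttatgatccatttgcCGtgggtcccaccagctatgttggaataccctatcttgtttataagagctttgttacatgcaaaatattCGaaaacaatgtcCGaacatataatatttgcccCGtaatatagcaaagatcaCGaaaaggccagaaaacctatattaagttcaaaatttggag
gained, in AT2G04090, chr2:1362940-1363139: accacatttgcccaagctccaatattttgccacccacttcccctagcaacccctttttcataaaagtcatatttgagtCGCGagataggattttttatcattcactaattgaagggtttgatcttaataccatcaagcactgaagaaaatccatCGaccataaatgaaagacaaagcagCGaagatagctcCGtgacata
lost, intergenic, chr5:12879282-12879481: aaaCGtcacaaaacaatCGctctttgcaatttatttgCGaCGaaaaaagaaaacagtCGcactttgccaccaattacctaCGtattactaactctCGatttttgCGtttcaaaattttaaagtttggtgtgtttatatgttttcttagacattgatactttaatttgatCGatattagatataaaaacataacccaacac
lost, in AT3G47770, chr3:17622303-17622502: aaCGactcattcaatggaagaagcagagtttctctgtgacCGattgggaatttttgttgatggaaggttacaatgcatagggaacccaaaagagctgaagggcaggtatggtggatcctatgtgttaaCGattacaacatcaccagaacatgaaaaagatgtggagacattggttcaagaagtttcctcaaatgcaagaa
shared, among pseudogenes, chr4:3849893-3850092: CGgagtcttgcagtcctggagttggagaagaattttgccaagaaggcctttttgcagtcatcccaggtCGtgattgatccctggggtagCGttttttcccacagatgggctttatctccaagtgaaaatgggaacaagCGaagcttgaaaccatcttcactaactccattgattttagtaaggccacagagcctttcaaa

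The strongest gained region, chr3:13752604-13752893, lay near the centromere between annotated pseudogenes. Its fold enrichment over the local background, as MACS2 gave it, was 3.23 and 2.67 in the *nrpe1* libraries, and no peak was listed there in WT. Both H1 lists of ZF108-DMS3, a line that carries NRPE1 and a DMS3 fusion targeted by a zinc finger, held a peak there too. None of the 50-base words that start in this region is unique in the genome. The strongest lost region, chr5:12879266-12879907, was of the same kind: it lay between pseudogenes, had folds of 2.43 and 2.88 in WT, and only 7.79% of its bases start a unique word. Reads were 50 bases long according to the methods and only unique ones were kept, so the share of unique words is printed beside the regions it touches, and its part in the calls was not tested.

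The other strongest gained regions were mostly short stretches of exons. AT2G04090 held the gained region chr2:1362808-1363116, with folds of 2.83 and 2.70, and AT2G26960, the gene of the transcription factor MYB81, held chr2:11506820-11507003, with folds of 2.75 and 2.49. AT3G56600, with 2.71 and 2.28, and AT1G65650, with 2.56 and 2.43, followed, as did AT2G13900 with 2.63 and 2.50. The gained regions chr1:13624028-13624263, with 3.02 and 3.38, and chr2:10354768-10355184, with 2.57 and 2.75, were intergenic and overlapped a WT NRPE1 region. Of the 8 strongest gained regions 5 lay on exons and 3 were intergenic. In the lost class ABCA6 (AT3G47770), an ABC transporter gene, held chr3:17622259-17622625, with folds of 2.96 and 3.07 in WT. The pseudogenes AT3G29772, AT4G17587 and AT5G33315 and the gene AT4G33860 held further lost regions, with folds of 2.64 to 3.32 in WT replicate 1 and 2.64 to 3.05 in WT replicate 2. The lost region chr3:11368694-11369292, on the RNA genes AT3G05735 and AT3G00570, had folds of 2.91 and 2.80. A lost region at chr3:13586937-13587683 was strong by its p-value and had folds of only 1.52 and 1.53. Of the 8 strongest regions of each class, 6 gained and 7 lost ones overlapped an H1 peak of at least 1 ZF108-DMS3 list. In the full classes 33.2% of the gained and 38.8% of the lost regions overlapped a peak of neither list, beside 40.2% of all merged regions. Most of the gained, of the lost and of all merged regions thus overlapped at least 1 of these lists. All merged regions include the shared ones, of which 1.95% overlapped a peak of neither list.

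Gained and lost regions were narrow and weak, and they resembled each other. The median width was 302 bp for gained regions, 316 bp for lost regions and 1173 bp for shared regions. At the strongest peak of each region the median fold was 2.16 and 2.12 in the *nrpe1* replicates for gained regions, and 2.28 and 2.22 in the WT replicates for lost regions. Shared regions had median folds of 2.92 and 2.96 in WT and of 2.82 and 2.72 in *nrpe1*. Ranked by p-value within its own list, the median gained region stood at percentile 30.4 and 29.2 of the *nrpe1* lists, and the median lost region at 27.9 and 30.5 of the WT lists. Of the gained regions 0.157% in *nrpe1* replicate 1 and 0 in replicate 2 reached the top 10% of the list. For shared regions that share was 17.7% to 21.0% over the 4 lists. A region enters the gained or lost class by the absence of peaks, so the low strength of these classes is in part fixed by the rule and is given as a description.

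Whether a peak was found again varied with its strength far more than with the genotype of the other library. Of the weakest 10% of peaks of WT replicate 1, 54.9% were overlapped in WT replicate 2, 50.0% in *nrpe1* replicate 1 and 49.7% in *nrpe1* replicate 2. Of its strongest 10%, the same shares were 99.9%, 99.9% and 99.7%. For WT replicate 2 the order was the opposite over the whole list, with 64.5% of peaks overlapped in WT replicate 1 and 66.9% and 67.5% in the *nrpe1* libraries. The 2 *nrpe1* lists found 72.9% and 73.5% of each other's peaks, and both found more of theirs in WT replicate 2, with 75.5% and 76.6%. By bases, the shared part of what a pair of lists covered was 63.6% for the WT pair, 67.6% for the *nrpe1* pair and 64.1% to 66.8% for the 4 pairs of a WT and an *nrpe1* list. All 4 of these mixed pairs shared more than the WT pair did.

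**Figure D1:**
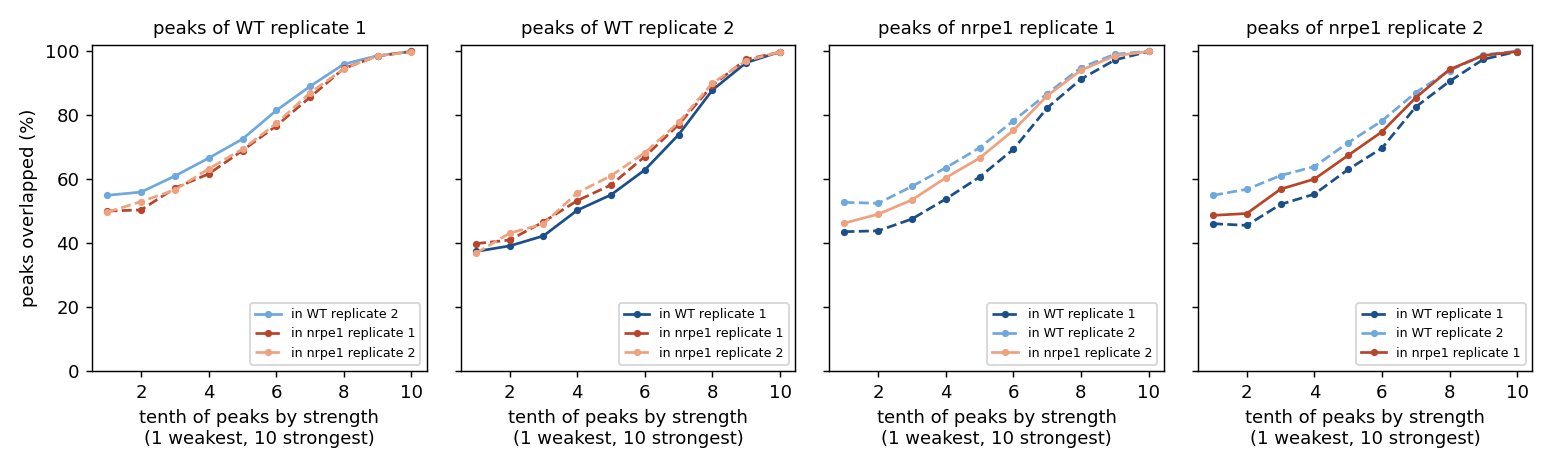
Percent of the H1 peaks of each library (panels) that overlap a peak of each of the other libraries (coloured lines), by strength within the list, in 10 equal groups ranked by p-value from weakest (1) to strongest (10). Solid lines join libraries of the same genotype and dashed lines libraries of the other genotype. Nearly all of the strongest peaks were found in every list, and the solid line lies above both dashed lines in 9 of 10 groups for WT replicate 1, and in at most 1 of 10 groups for each of the others.

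The classes differed in what they overlapped. Of the gained regions 65.7% overlapped a protein-coding gene, 13.2% an annotated pseudogene, most of which in this genome are remnants of transposons, and 19.8% lay in intergenic space only. The lost regions had 58.2%, 14.4% and 25.8%. Shared regions were the reverse, with 32.2% on protein-coding genes, 50.8% on pseudogenes and 19.5% in intergenic space only. All merged regions together had 58.6%, 20.6% and 20.2%, so gained and lost regions stood close to the merged regions as a whole and away from the shared ones. Windows of 100 kb with at least 10% of their bases under WT H3K9me2 regions are called H3K9me2-rich. They held 24.8% of the gained, 34.3% of the lost and 65.3% of the shared regions, and 33.4% of all merged regions. These windows stand in for the pericentromeric part. They are set by H3K9me2 alone and are not all pericentromeric, as AT2G01008 at the left end of chromosome 2 lies in one.

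**Figure D2:**
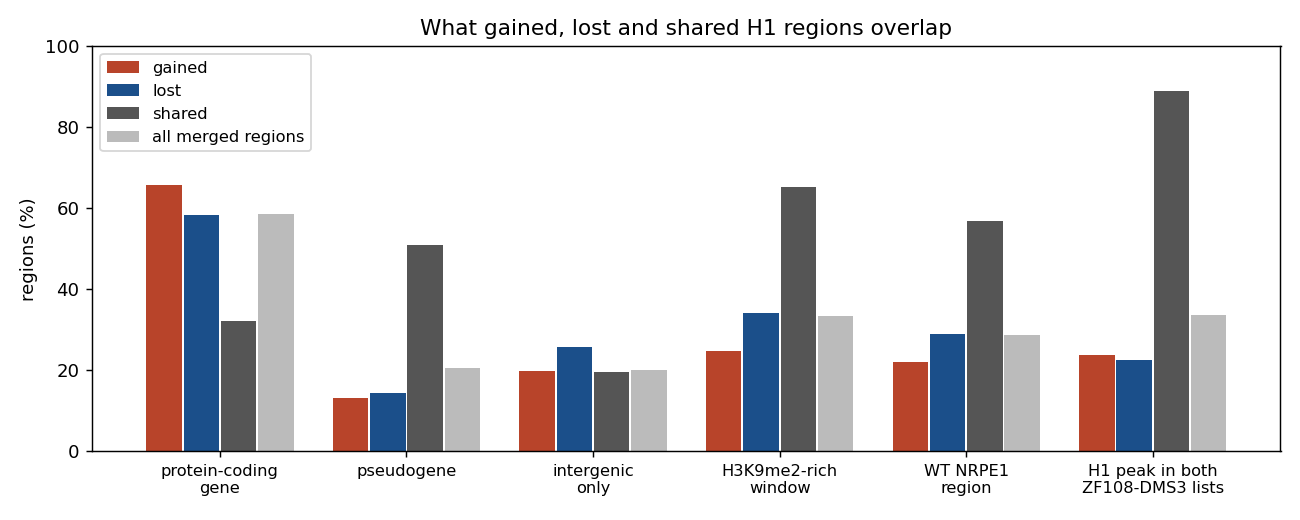
Percent of gained (red), lost (blue), shared (dark grey) and all merged (light grey) H1 regions that overlap each feature by at least 1 bp. Gained and lost regions lie mostly on protein-coding genes, while shared regions lie mostly on pseudogenes and in H3K9me2-rich windows.

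Shared regions also overlapped peaks of other libraries, which the classes were not built from, more often than the other classes did. NRPE1 regions found in both WT NRPE1 lists overlapped 22.2% of the gained, 28.9% of the lost and 56.9% of the shared H1 regions, against 28.8% of all merged regions. Within the H3K9me2-rich windows the shares were 45.6%, 52.7% and 68.6%, and outside them 14.4%, 16.4% and 34.9%. In the H1 lists of ZF108-DMS3, where NRPE1 is present, 41.8% and 48.7% of the gained regions and 36.8% and 46.9% of the lost regions overlapped a peak. All merged regions had 44.6% and 48.8%, but these include the shared regions, with 91.9% and 95.1%. The gained and lost classes lay near or below this mixture, which does not place them beside the regions that were not shared. The shares of regions with a peak in both ZF108-DMS3 lists were 23.7% for gained and 22.5% for lost regions, and 89.0% for shared regions, against 33.6% of all merged regions. No test was run on these shares. Overlap meant at least 1 bp, and shared regions were wider, with a median of 1173 bp against 302 bp for gained and 316 bp for lost regions. A wider region has more bases in which to meet a peak, a gene or a pseudogene. The part of width in the shares given here and for the features above was not tested.

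Base composition of the summits differed little between classes. The mean G and C content of 300-base windows at the strongest summit was 39.7% for gained, 38.6% for lost and 41.2% for shared regions, against 39.6% at all WT peaks and 36.0% over the nuclear genome. The telobox, AAACCCTA on either strand, stood in 4.56% of the gained, 4.14% of the lost and 4.06% of the shared windows. It stood in 4.32% of the windows at all WT peaks and in 3.87% of 300-base windows tiled over the genome. None of the printed windows held it.

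Over protein-coding genes H1 covered few bases, and the *nrpe1* values lay between the WT values. In WT replicates 1 and 2, 2.83% and 3.80% of protein-coding gene bases were under peaks, while *nrpe1* had 3.19% and 3.29%. Mean coverage was 3.32% ± 0.682 for WT and 3.24% ± 0.0741 for *nrpe1* (SD, n = 2). The difference of −0.0751 points was far below the 0.965 points by which the WT replicates differed. Exons had 2.94% and 3.99% in WT and 3.34% and 3.50% in *nrpe1*, and introns had 2.58% and 3.31% in WT and 2.81% and 2.77% in *nrpe1*. In both features the *nrpe1* libraries again fell inside the range of the WT libraries.

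Pseudogenes were the most covered annotation. Peaks covered 64.8% and 70.4% of their bases in WT and 68.5% and 69.4% in *nrpe1*, with means of 67.6% ± 3.91 and 69.0% ± 0.697 (SD, n = 2). The difference of 1.34 points was smaller than the WT gap of 5.53 points. In the H3K9me2-rich windows the values were 77.8% and 83.0% in WT and 81.2% and 81.9% in *nrpe1*, and in the other windows 24.6% and 31.0% against 28.9% and 30.7%. Coverage rose with the length of the pseudogene. Those under 500 bp had 34.4% and 37.3% of their bases covered in WT and 36.5% and 36.9% in *nrpe1*, and the 356 of 5 kb or more had 74.0% and 79.3% in WT and 77.2% and 78.3% in *nrpe1*. In each of the 5 length classes both *nrpe1* values lay between the WT values.

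Intergenic space stood between these. Peaks covered 12.5% and 13.8% of it in WT and 13.0% and 12.7% in *nrpe1*, a difference of −0.273 points beside a WT gap of 1.32 points. It was higher in the H3K9me2-rich windows, where 43.5% and 47.6% of intergenic bases were covered in WT and 45.3% and 44.1% in *nrpe1*. Outside those windows WT had 0.924% and 1.2%, and *nrpe1* had 1.01% and 0.981%. The windows as a whole had 50.8% and 55.1% in WT and 53.0% and 52.6% in *nrpe1* where rich in H3K9me2, and 2.25% and 3.07% against 2.61% and 2.73% elsewhere.

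Over the whole nuclear genome peaks covered 11.8% and 13.2% of the bases in WT and 12.5% and 12.5% in *nrpe1*. The other features are parts of this genome, many of them overlapping, so they are not separate results. Of 24 features compared in this way, the whole genome, chromosomes and subsets included, 23 had both *nrpe1* values between the WT values. An exact two-sided permutation of the 4 libraries gave p = 1 for each of these, with 2 libraries a group and a smallest possible p of 0.33. With this test no difference of any size could be called, and the values do not show that H1 was the same in both genotypes.

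**Figure D3:**
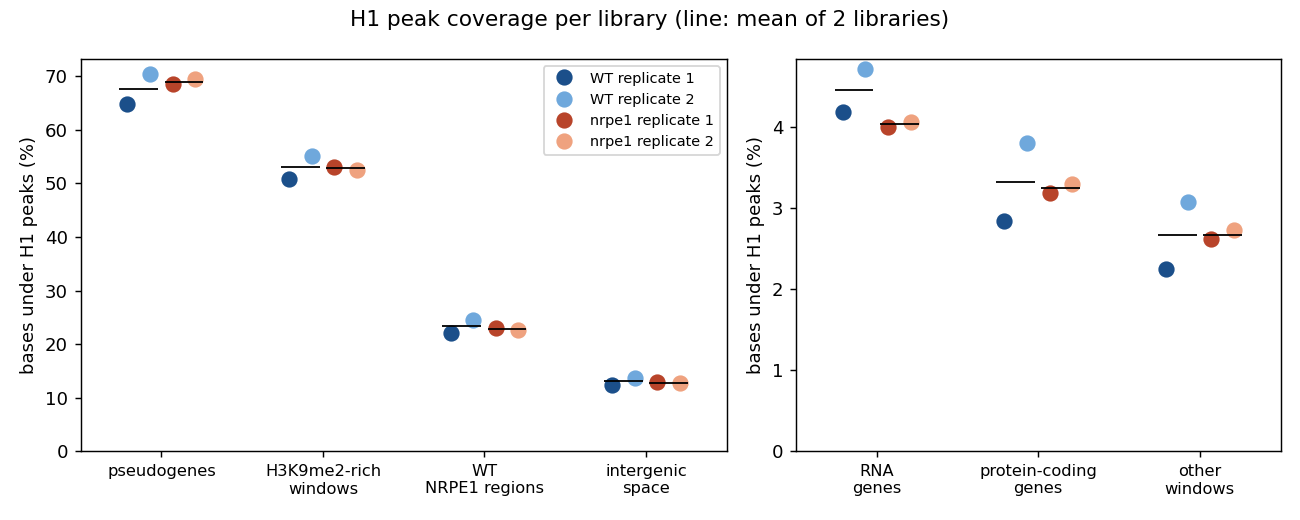
Percent of the bases of each feature under H1 peaks, as 1 point per library, with a line at the mean of the 2 libraries of a genotype. The left and right panels have different scales, both starting at 0. The 2 *nrpe1* points lie between the 2 WT points in every feature except RNA genes, where both lie below.

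The profile along genes was the same in shape in all 4 libraries. Averaged over 26200 protein-coding genes of at least 500 bp, coverage in the 100 bp centred 350 bp upstream of the start was 1.06% and 1.36% for the WT libraries, against 1.17% and 1.14% for the *nrpe1* libraries. It rose through the body to 3.75% and 5.05% in WT and 4.22% and 4.53% in *nrpe1* at 72.5% of the gene length, and fell to 1.90% and 2.49% against 2.03% and 2.04% in the last bin. H1 peaks within genes thus lay towards the 3′ part and away from both ends. By the third of the gene that held the midpoint, the 402 gained regions with a midpoint in 1 gene fell 22.1% in the first, 39.1% in the middle and 38.8% in the last part. The 445 lost regions had 20.2%, 37.1% and 42.7%, and the 1469 shared regions had 20.8%, 46.2% and 33.1%. The first part thus held the fewest regions in every class. Over pseudogenes coverage rose from 45.5% and 50.3% in WT, and 47.4% and 47.5% in *nrpe1*, at 350 bp upstream to 61.3% and 66.5% in WT, and 65.4% and 65.4% in *nrpe1*, near the middle.

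**Figure D4:**
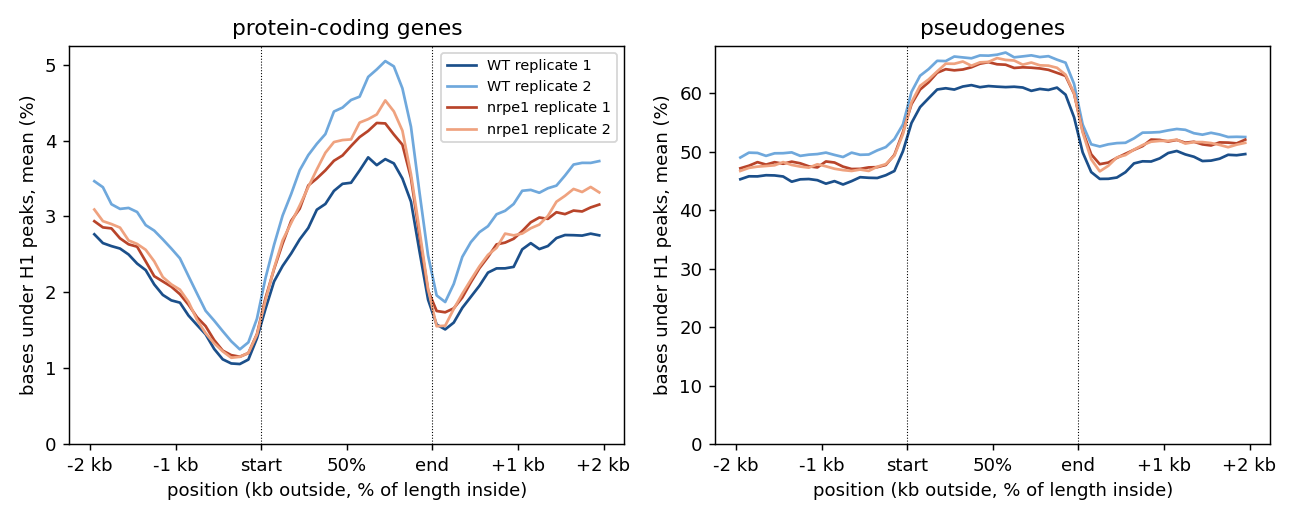
Mean percent of bases under H1 peaks along protein-coding genes (left) and pseudogenes (right), from 2 kb upstream to 2 kb downstream, with 1 line per library. Dotted lines mark the annotated start and end, and lengths between them are scaled to percent. The *nrpe1* lines run between the WT lines at nearly every position, and protein-coding genes are covered most at 62.5% to 72.5% of their length.

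At sites where Pol V binds in WT, the H1 coverage of *nrpe1* lay between the WT values. WT NRPE1 regions numbered 16898, and H1 peaks covered 22.1% and 24.5% of their bases in WT and 23.0% and 22.7% in *nrpe1*, a difference of −0.433 points beside a WT gap of 2.37 points. The sign was not stable, with 0.176 points for equal numbers of peaks and 0.752 points without WT replicate 2. In the windows not rich in H3K9me2 the regions had 5.07% and 6.49% in WT, against 5.85% and 5.96% in *nrpe1*, a difference of 0.126 points. The summit base itself was under an H1 peak at 51.6% and 55.0% of 7639 summits in H3K9me2-rich windows in WT, and at 52.5% and 52.1% in *nrpe1*. At the 9259 summits elsewhere the shares were 4.26% and 5.35% in WT and 4.75% and 5.02% in *nrpe1*. In the other windows H1 coverage was lower at the summit than away from it in both genotypes. It fell from 5.77% and 7.27% at 1950 bp upstream to 4.20% and 5.38% beside the summit in WT, and from 6.34% and 6.93% to 4.85% and 4.83% in *nrpe1*. H3K9me2-rich windows also had a dip around the summit, with a small rise at its centre. At 1950 bp upstream the WT libraries had 52.6% and 56.9%, against 54.8% and 54.3% for the *nrpe1* libraries. Coverage fell to 48.1% and 52.3% (WT) and 49.9% and 49.1% (*nrpe1*) at 250 bp upstream. It reached 51.1% and 54.9% (WT) and 52.1% and 51.4% (*nrpe1*) at 50 bp downstream of the summit. In all 4 libraries this stayed below the value at 1950 bp upstream.

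**Figure D5:**
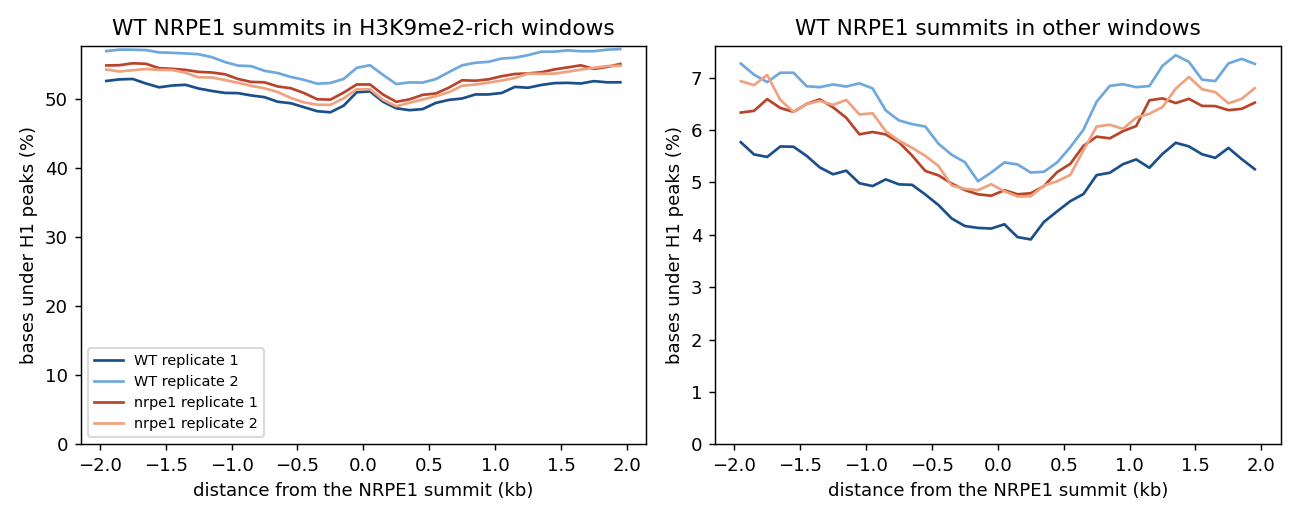
Percent of bases under H1 peaks around the summits of WT NRPE1 regions, in H3K9me2-rich windows (left, 7639 summits) and in other windows (right, 9252 summits with the whole span on the chromosome), with 1 line per library and different scales that both start at 0. The *nrpe1* lines lie between the WT lines at all but 1 position, and the lower coverage near the summit in the right panel is seen in all 4 libraries.

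Single protein-coding genes gained or lost H1 peaks rarely. Of 27444 genes, 185 (0.674%) had a peak in both *nrpe1* and neither WT library, 297 (1.08%) had the opposite, 1998 (7.28%) had a peak in all 4 libraries and 20712 (75.5%) in none. The remaining 4252 (15.5%) had a peak in some libraries in another pattern, so more genes varied between libraries than had a peak in all 4. With equal numbers of peaks the counts were 246 gained and 207 lost, the opposite balance. The genes with a peak in all 4 libraries were longer than those in none, with medians of 2.45 and 2.00 kb, but in H3K9me2-rich windows they were shorter, with 1349 and 1781 bp. In the gained set the most bases were under peaks in AT5G55770, which encodes a cysteine/histidine-rich C1 domain protein, with 0 and 0 bp in WT and 847 and 510 bp in *nrpe1*. EOL1 (AT4G02680), an ETO1-like gene, had 0 and 0 bp in WT and 168 and 1022 bp in *nrpe1*. GMII (AT5G14950), a Golgi mannosidase that trims N-glycans, had 0 and 0 bp in WT and 535 and 555 bp in *nrpe1*. AT1G04880, a gene with HMG box and ARID domains, had 318 and 831 bp in *nrpe1*, and AT2G17590 had 280 and 759 bp, both with 0 bp in WT. All 5 also had bases under peaks in both ZF108-DMS3 lists, from 146 to 407 bp in replicate 1 and from 302 to 560 bp in replicate 2. These 5 were picked for their covered bases and do not stand for the class. Of all gained regions 23.7% overlapped a peak of both ZF108-DMS3 lists, beside 33.6% of all merged regions, which include the shared ones at 89.0%.

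The lost set was led by a different kind of gene. AT2G01008, at the left end of chromosome 2, had 2082 and 1870 of 2149 bp under peaks in WT and 0 and 0 bp in *nrpe1*, and AT3G41762 on chromosome 3 had 1419 and 956 of 1419 bp in WT and 0 and 0 bp in *nrpe1*. Both lie beside genes of the 18S ribosomal RNA. AT2G10975, an uncharacterized gene, was covered over all of its 951 bp in both WT libraries and by 0 bp in both *nrpe1* libraries, and had 785 and 951 bp in ZF108-DMS3. It lay in a WT NRPE1 region and a WT H3K9me2 region, and all of its 50-base words were unique. AT3G45850 had 584 and 933 bp in WT and 578 and 972 bp in ZF108-DMS3, against 0 and 0 bp in *nrpe1*. CYP71B16 (AT3G26150), a cytochrome P450 gene, had 615 and 697 bp in WT, 0 and 0 bp in *nrpe1* and 0 and 0 bp in ZF108-DMS3. AT2G10975 and AT3G45850 are thus the genes among these 5 whose peaks were present in the 4 lists from lines with NRPE1 and absent from both *nrpe1* lists. The 5 genes were picked for their covered bases and do not stand for the class. By the rule of the classes a region with this pattern is always a lost one, and 22.5% of the lost regions had it. Whatever the WT and *nrpe1* lists held, 33.6% of all merged regions overlapped a peak of both ZF108-DMS3 lists. These include the shared regions, at 89.0%.

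Pseudogenes had a peak in every library far more often than genes did. Of 4843, 3498 (72.2%) had a peak in all 4 libraries, 833 in none, 23 (0.475%) in both *nrpe1* libraries only and 36 (0.743%) in both WT libraries only. With equal numbers of peaks the counts were 31 gained and 26 lost. With all peaks, the remaining 453 (9.35%) had a peak in some libraries in another pattern. The gained and lost pseudogenes were short, with medians of 938 and 907 bp against 2223 bp for those with a peak in all 4 libraries. AT3G21933 had 311 and 608 bp under peaks in *nrpe1*, AT2G04135 had 405 and 466 bp and AT3G44425 had 296 and 479 bp, each with 0 bp in WT. AT2G04590, with 449 and 237 bp, and AT1G64250, with 338 and 255 bp, followed. In the other direction AT3G29784 had 441 and 543 bp in WT, and AT5G33405 had 572 and 353 bp, each with 0 bp in *nrpe1*. AT3G30110 had 150 and 641 bp in WT, AT3G44175 had 178 and 601 bp and AT1G32890 had 294 and 476 bp. Of these 10, AT5G33405 was at 0 bp in both ZF108-DMS3 lists as well.

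The ribosomal DNA was the widest stretch of lost H1. The lost region chr3:14193511-14205086, which holds the 18S gene AT3G41768 and AT3G41762, was covered over 11576 bp in WT replicate 1 and 4574 bp in WT replicate 2, and over 0 bp in both *nrpe1* libraries. The lost region chr2:1092-4099, beside the 18S gene AT2G01010, was covered over 3008 and 2111 bp in WT and 0 and 0 bp in *nrpe1*. Both ZF108-DMS3 lists, from a line that has NRPE1, were at 0 bp in both regions, so on the rDNA the WT lists stood apart from the other 4 H1 lists and not *nrpe1* from the rest. The WT peaks were near the bottom of their lists in fold, with at most 1.26 and 1.27 in the region on chromosome 3 and 1.27 and 1.24 in that on chromosome 2, against list medians of 2.63 and 2.49. Only 10.9% and 23.2% of the bases of these regions start a unique 50-base word. Whether uniqueness or peak strength plays a part in these calls was not tested. These regions were chosen after their values were seen. The rDNA also bears on the RNA genes, the feature in which the genotypes did not overlap, with 4.18% and 4.72% of bases covered in WT and 4.00% and 4.06% in *nrpe1* (exact permutation test, two-sided, p = 0.33, adjusted p = 1 over 24 features). With peaks within 8 kb of the 18S genes left out, the difference of −0.413 points became −0.148 points (exact permutation test, p = 1). The 4 annotated rRNA genes had 89.9% of their bases under peaks in WT replicate 1 and 0.0254% in WT replicate 2, so the rRNA genes themselves differed between the WT replicates.

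Bases that changed in both replicates lay mostly inside shared regions. Bases under peaks of both *nrpe1* libraries and neither WT library summed to 515.9 kb, and the opposite to 519.7 kb, beside 9548 kb covered in all 4 libraries. Of the gained bases 66.4% lay inside shared regions, and of the lost bases 60.5%. They came in short stretches, 6742 gained and 6647 lost, with a median of 59 bp in both. Stretches of 500 bp or more numbered 2 among the gained and 8 among the lost. The longest gained stretch, 648 bp at chr3:17107687-17108334, lay on the pseudogene AT3G46484. The longest lost stretches were 1829 bp on AT2G01008 beside the rDNA and 1124 bp on AT2G10975.

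For each library the shared regions were ranked among themselves by their best p-value, as a percentile. No test was run on these ranks. Of 5539 shared regions, 1008 (18.2%) ranked higher in both *nrpe1* lists than in both WT lists and 908 (16.4%) ranked lower. On pseudogenes 19.8% ranked higher and 14.4% lower, in intergenic space 15.6% and 19.8%, and in protein-coding genes with no pseudogene 17.4% and 17.2%. The median change in percentile was 0.641 on pseudogenes, −1.26 in intergenic space and 0.311 on protein-coding genes. Outside the H3K9me2-rich windows 19.7% ranked higher and 15.4% lower, with a median change of 1.79, and inside them 17.4% and 16.9%. Regions over WT NRPE1 regions had 18.7% higher and 16.5% lower, and those without had 17.5% and 16.3%. The strongest shared region, chr4:3818112-3880086, spanned 9 pseudogenes with folds of 7.01 and 7.91 for WT, against 6.69 and 8.41 for *nrpe1*. The next by strength were chr5:11318496-11332326, with 6.51 and 5.84 for WT and 5.31 and 3.99 for *nrpe1*, chr1:15093286-15113675, with 6.16 and 6.56 against 5.61 and 5.11, and chr4:3990018-3996103, with 4.51 and 4.93 against 4.50 and 3.76. The widest, chr1:15442679-15553094, was 110416 bp long and had folds of 6.36 and 6.42 in WT and 5.50 and 5.60 in *nrpe1*.

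Genes of the silencing pathways are given from lists of known members. Of 23 RdDM genes, 7 had an H1 peak in all 4 libraries, 7 in none, 8 in some and 1, DRM2, in both *nrpe1* libraries only. Over all protein-coding genes 7.28% had one in all 4 and 75.5% in none. The RdDM genes with a peak in all 4 libraries were 3895 to 9259 bp long, and those with none 2008 to 7473 bp. Over all protein-coding genes the medians were 2.45 kb with a peak in all 4 and 2.00 kb with none. The part of gene length in these counts was not tested. NRPE1 (AT2G40030) itself, the mutated gene, had 2619 and 4261 of 9259 bp under H1 peaks in WT and 2599 and 1807 bp in *nrpe1*. NRPD1, the largest subunit of Pol IV, had 543 and 1124 bp in WT and 625 and 341 bp in *nrpe1*, and NRPD2, the second subunit of both polymerases, had 414 and 446 bp against 686 and 185 bp. The genotypes overlapped in NRPD1 and NRPD2, and in NRPE1 both *nrpe1* values were below both WT values, the nearest pair being 2599 and 2619 bp. CLSY1, a remodeller that recruits Pol IV, had 1018 and 2343 bp in WT and 1988 and 743 bp in *nrpe1*, and its relatives CLSY2 and CLSY4 also had peaks in all 4 libraries. DRM2 had 211 and 158 bp in *nrpe1* and 0 bp in WT and in both ZF108-DMS3 lists. DCL3, the dicer that makes the small RNAs of the pathway, RDM1, SUVH2, SUVH9, SHH1 and IDN2 had none in the 4 libraries, and neither had DMS3, which ZF108-DMS3 carries as a transgene and where its lists had 2369 and 491 bp.

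Of 11 genes of heterochromatin, 6 had no peak, and none had a peak in all 4 libraries. SUVH4, the H3K9 methyltransferase that works with CMT3, had 141 and 142 bp in *nrpe1*, 0 bp in WT, and 140 and 0 bp in ZF108-DMS3. SUVH5, a related enzyme, had 263 and 140 bp in WT, 0 bp in *nrpe1*, and 0 and 145 bp in ZF108-DMS3. Of the 4 libraries, MET1 and VIM1 had a peak in WT replicate 2 only, and VIM1 also had 243 bp in ZF108-DMS3 replicate 2. The 3 linker histone genes had no H1 peak in any library. ROS1, the demethylase, had 601 and 322 bp in WT and 185 and 407 bp in *nrpe1*. FWA, a homeobox gene silenced by methylation of its promoter repeats, had 676 and 915 bp in WT, 1212 and 1203 bp in *nrpe1*, and 806 and 580 bp in ZF108-DMS3. Its *nrpe1* values were above those of the other 4 lists. SDC, an F-box gene silenced by RdDM, had 211 and 0 bp in WT and 333 and 163 bp in *nrpe1*. Over the 44 listed genes 2 were gained and 1 was lost, beside 0.674% and 1.08% of all protein-coding genes.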

How the data were processed

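Peak lists of H1 ChIP-seq from 2 WT and 2 *nrpe1* libraries were compared. According to the study's methods and notes, the authors used Bowtie2 2.1.0 for alignment to TAIR10 and kept perfectly and uniquely matching reads. SAMtools served to take out duplicates, and each library had its own MACS2 2.1.1 call. The control and settings of the calls are not given in the sources used here. The deposited columns used were the fold enrichment at the summit (a ratio), the −log10 p-value and −log10 q-value, and the summit offset. The score column and lists of other comparisons were not used, except WT NRPE1, WT H3K9me2 and ZF108-DMS3 H1 lists.

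Regions were merged and genes taken from TAIR10.1, whose nuclear chromosome lengths match. Overlap meant at least 1 bp. WT NRPE1 and H3K9me2 regions held peaks of both WT libraries, and H3K9me2-rich windows of 100 kb had at least 10% of their bases under the latter. Strength was the p-value rank in a list. The 8 strongest regions gained and lost, 4 shared, and the 5 genes and 5 pseudogenes with most bases under peaks in each direction were named. Other regions and genes named for their width, the rDNA or in the closing section were chosen after their values were seen. Coverage was tested by exact two-sided permutation of libraries, with Benjamini-Hochberg adjustment. Python 3.11.15, numpy 2.4.6 and matplotlib 3.10.9 were used, and counting was tested on simulated data. Members and lists were chosen with earlier results of these data known. RNA genes, rDNA, uniqueness of 50-base words, overlap by strength, ranks of shared regions, stretches and gene lengths were examined after seeing the data. Alternatives were a q threshold, equal numbers of peaks, wider merging, other feature definitions, a replicate block and leaving out each library.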

Additional observations from a re-analysis of the deposited data

How the results depend on the processing

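With 2 libraries a group the exact permutation test could not reach p below 0.33. The lists give no read counts, so depth is unknown. Requiring a −log10 q of at least 3 gave 417 gained regions and turned the difference in other windows to −0.00168 points. Merging peaks within 500 bp gave 285 gained, 411 lost and 3028 shared regions. With an equal number of peaks per list the difference was 0.239 points in protein-coding genes, 0.0306 in intergenic space, 0.575 in H3K9me2-rich windows and 0.176 in WT NRPE1 regions, each opposite in sign to the value with all peaks and each with an exact permutation p = 1. The cause of these changes was not tested.

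Leaving out 1 library loosens the rule for gained and lost regions, which then rests on a single library of a genotype. Gained regions ranged from 1187 to 3609, lost regions from 1532 to 5047 and shared regions from 6792 to 7061. Protein-coding genes gained ranged from 357 to 730 and lost from 535 to 1096, and pseudogenes gained from 41 to 92 and lost from 73 to 93. The difference in covered bases ranged from −0.558 to 0.407 points in protein-coding genes, −1.43 to 4.11 in pseudogenes, −0.932 to 0.386 in intergenic space, −2.30 to 1.92 in H3K9me2-rich windows, −0.401 to 0.422 in other windows and −1.62 to 0.752 in WT NRPE1 regions. Without WT replicate 1 the sign turned in pseudogenes and other windows, and without WT replicate 2 in protein-coding genes, intergenic space, H3K9me2-rich windows and WT NRPE1 regions. Without *nrpe1* replicate 2 it turned in H3K9me2-rich windows, to 0.0113, and other windows, to −0.0486. RNA genes stayed lower in *nrpe1*, from −0.684 to −0.143 points.

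The replicate numbers did not pair the libraries: over 1193 windows of 100 kb the differences between replicates of WT and of *nrpe1* had r = −0.0969. With the replicate block the mean differences are the same by construction, −0.0751 points in protein-coding genes and 1.34 in pseudogenes, with p = 1 by exact permutation, and p = 0.5, the smallest of 2 pairs, in RNA genes. The pairs disagreed in sign, with 3.61 points for replicate 1 and −0.933 for replicate 2 in pseudogenes. In RNA genes a −log10 q of at least 3 gave −0.244 points (exact permutation p = 1) and an equal number of peaks −0.124 (p = 0.667); these and the rDNA setting were chosen after seeing the data.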

Other observations

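Some protein-coding genes outside the gained and lost sets had many bases under H1 peaks in every library. They were chosen after their values were seen, as examples among the most covered genes, and no test was run on them. ATM (AT3G48190), a kinase of the DNA damage response, had 3824 and 5799 of 27265 bp under H1 peaks in WT and 7807 and 7108 bp in *nrpe1*. ATR (AT5G40820), a related kinase, had 3519 and 4647 of 11171 bp in WT and 3354 and 3644 bp in *nrpe1*. The *nrpe1* values were above both WT values in ATM and overlapped the WT values in ATR. ABCC13 (AT2G07680), an ABC transporter gene, had 6752 and 7613 of 7991 bp in WT and 7532 and 7567 bp in *nrpe1*. Among pseudogenes AT5G32690 had the most bases covered, with 53799 and 56205 bp in WT and 55333 and 55935 bp in *nrpe1*.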
